A study of Mus musculus with 6 samples.

Results

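The genes described here make sterols and fatty acids or set how much of these lipids a cell makes and exports. Their 38 members, of the 55401 genes counted, were chosen by symbol for known roles, with earlier results of these data known: enzymes of cholesterol and fatty acid synthesis under SREBP control, the SREBP proteins with their escorts and anchors, and the nuclear receptor LXR with genes it switches on. Every one of the 38 symbols matched 1 gene of the counts, and all 38 passed the filter on low counts. By role, 7 members lead from acetyl-CoA through mevalonate to farnesyl diphosphate, 11 from squalene to cholesterol, 6 belong to SREBP control and sterol transport, 10 to fatty acid synthesis and desaturation, and 4 are LXR and its targets.

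RNA-seq was done on C3H10T1/2 cells, a mouse mesenchymal line able to take on bone or fat traits, in 6 conditions with 1 library each. Cells carried a control hairpin (shControl, labelled wild type) or a hairpin against the transcription factor NFIB (shNFIB). Others carried a hairpin against the histone methyltransferase MLL1 (shMLL1). Each line was taken at day 0, untreated and at confluence, and at day 7 in osteogenic medium that held dexamethasone (0.1 µM), ascorbic acid 2-phosphate (100 µg/ml) and β-glycerophosphate (20 mM). The libraries held between 21608680 and 34774066 counts. Day, medium and time at confluence cannot be told apart, since day 0 cells had none of the medium, and with 1 library per condition a difference between a pair of libraries has no replicate check.

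As background, cells build cholesterol from acetyl-CoA along the mevalonate route, and the enzymes of that route are switched on by SREBP proteins, which SCAP escorts to the Golgi when membranes are poor in sterol and which INSIG proteins hold back when sterol is plentiful. LXR answers to oxidised sterols and raises the sterol exporters ABCA1 and ABCG1. Dividing cells and fat cells are both known for high lipid synthesis.

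The hairpin targets were read first. Nfib was at 116 CPM in shControl, 35.3 CPM in shNFIB and 65.5 CPM in shMLL1 at day 0, and at 83.5, 8.15 and 72.7 CPM in the same order at day 7. Kmt2a, the gene of MLL1, had 74.7, 86.5 and 30.9 CPM at day 0 in that order of lines and 66.3, 94.0 and 34.8 CPM at day 7. CPM are counts scaled by library size and TMM factors. On both days the line with a hairpin against a gene had the least of that gene. Against shControl, the log2 difference of Nfib in shNFIB was -1.72 (-1.82 to -1.62) at day 0 and -3.36 (-3.55 to -3.17) at day 7, where brackets hold exact Clopper-Pearson 95% intervals for counting error. That of Kmt2a in shMLL1 was -1.27 (-1.38 to -1.16) at day 0 and -0.93 (-1.05 to -0.81) at day 7. The shMLL1 line had less Nfib as well at day 0, at -0.83 (-0.91 to -0.75). Of the 8 mesenchymal markers, Vim, Col1a1 and Col1a2 were abundant in all 6 libraries, with Vim between 1176 and 5979.7 CPM, while Nt5e stayed at or under 0.246 CPM. The 8 markers summed to 10245, 14268 and 6010.2 CPM at day 0 in shControl, shNFIB and shMLL1, and 7039.7, 6569 and 5713 CPM at day 7. Over the 3 lines Vim and Thy1 fell and Pdgfra rose by day 7 in the quasi-likelihood test of edgeR, Benjamini-Hochberg adjusted. By the same test Thy1 was higher in shNFIB than in shControl over both days, at 2.36 ± 0.245 (SE).

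Whether these genes moved with osteogenic culture was asked first, in the comparison with 3 libraries a side. At day 7, 26 of the 38 members fell and 4 rose at an adjusted p under 0.05 in the quasi-likelihood test of edgeR, Benjamini-Hochberg adjusted, with the line as a block, against 16.5% and 16.8% of the 16742 genes tested. Since the members were chosen with earlier results of these data known, these shares are a description. The falling members were sterol and fatty acid enzymes with 3 of the 6 for SREBP control and sterol transport. The 4 rising members were the whole LXR group. The log2 fold change over the 3 lines, here the day effect, had a median of -1.32 over the members and 0.01 over all genes tested. In 22 members all 3 day 7 libraries lay below all 3 day 0 libraries, and in 4 they lay above, which was the case for 20.9% and 23.7% of the genes tested. Fewer cells that make a transcript and less of it per cell cannot be told apart in these bulk libraries.

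Taken line by line, and called by a change past 2-fold with no test, 26 members were lower and 4 higher at day 7 in shControl, beside 14.9% and 23.0% of genes with at least 10 counts in 1 of the libraries. In shNFIB the counts were 22 lower and 4 higher, beside 13.9% and 16.5%. In shMLL1 they were 22 lower and 4 higher, beside 19.8% and 25.8%. The 4 members past 2-fold higher were Nr1h3, Abca1, Abcg1 and Mylip in each line. With library size alone in place of TMM, Acaca and Fasn in shControl, Fasn in shNFIB and Ebp in shMLL1 were no longer past 2-fold lower.

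**Figure D1:**
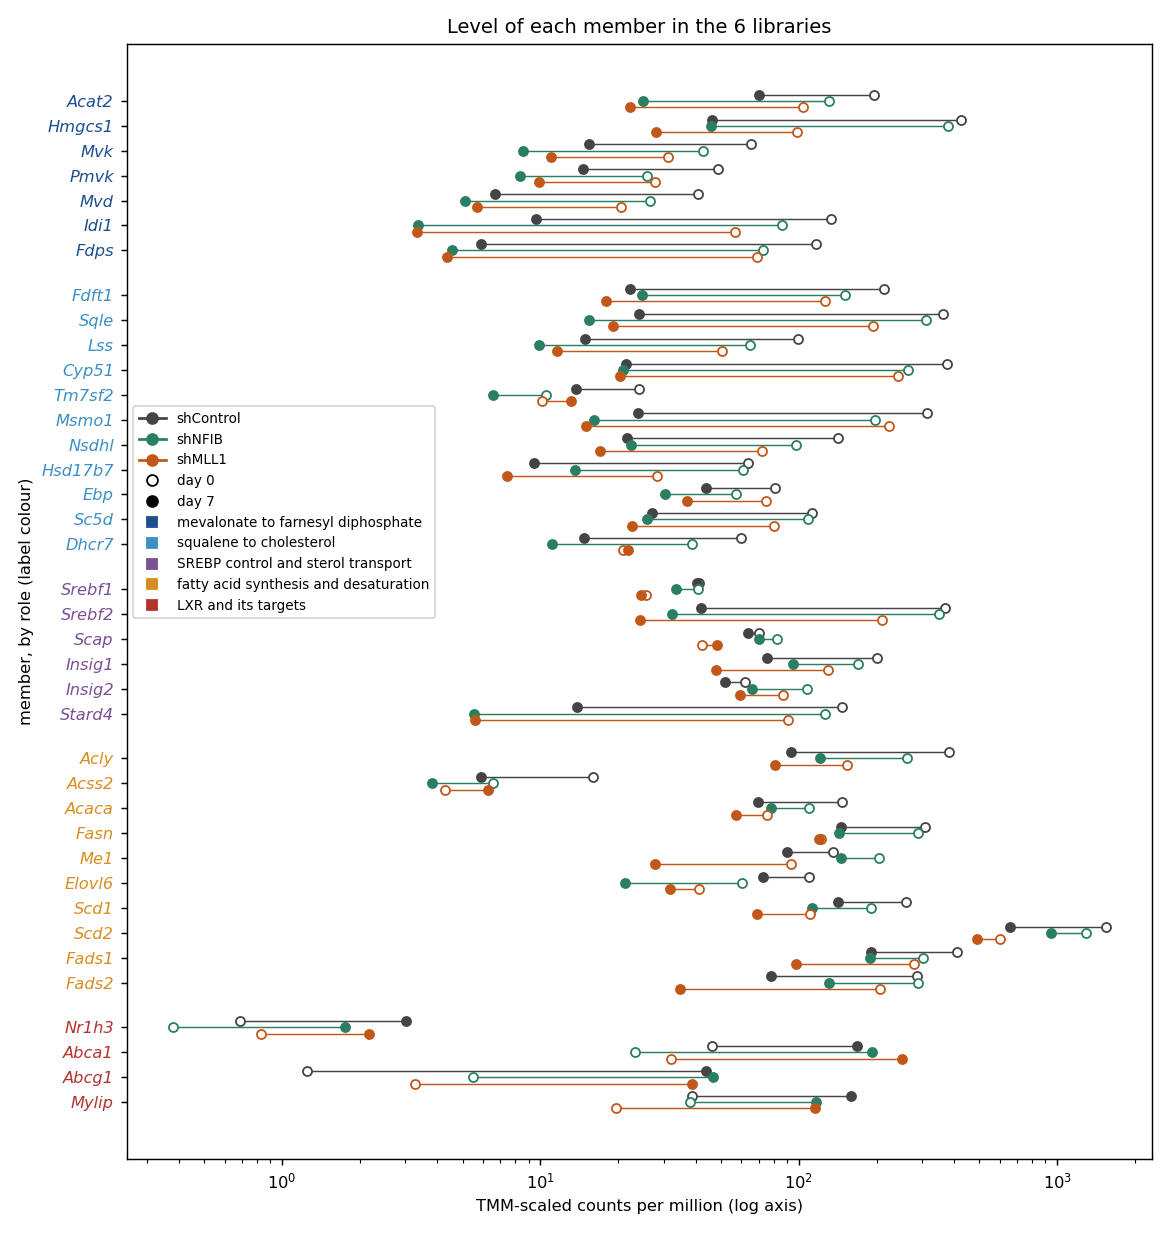
Level of each of the 38 members in TMM-scaled CPM on a log axis, with open circles for day 0, filled circles for day 7 and a line joining the days of 1 cell line, 1 library per circle. Most sterol enzymes lie far to the left at day 7 in all 3 lines, and the 4 LXR genes lie to the right. Tm7sf2, Scap, Acss2 and, within counting error, Dhcr7 move the other way in shMLL1 from the other lines.

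All 7 members from acetyl-CoA to farnesyl diphosphate fell, with log2 fold changes between -4.18 and -1.62, and in none of them did the days overlap. Idi1, the isomerase of isopentenyl diphosphate (ENSMUSG00000058258, chr13:8885501-8892451 on GRCm38), was at 133 CPM in shControl, 86.3 CPM in shNFIB and 56.7 CPM in shMLL1 at day 0, and at 9.61, 3.35 and 3.32 CPM in the same order at day 7. Every day 7 library was far under every day 0 library, and the day effect was -4.18 ± 0.253 (SE, adjusted p = 0.000443 in the quasi-likelihood test of edgeR, Benjamini-Hochberg adjusted), an 18.2-fold fall over the 3 lines. Fdps, farnesyl diphosphate synthase, had 116, 72.9 and 69.1 CPM at day 0 in shControl, shNFIB and shMLL1, and 5.87, 4.53 and 4.34 CPM at day 7. Its day effect was -4.10 ± 0.208 (adjusted p = 0.000436, same test).

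Hmgcs1, which condenses acetyl-CoA units into HMG-CoA, went from 426 to 46.2 CPM in shControl, from 379 to 45.6 CPM in shNFIB and from 98.6 to 27.9 CPM in shMLL1. The day 0 level in shMLL1 was well below the other lines at day 0 but still above every day 7 library, and the day effect was -2.70 ± 0.320 (adjusted p = 0.00184, same test). Acat2, a cytosolic thiolase that opens the route, had 195, 131 and 103 CPM at day 0 in shControl, shNFIB and shMLL1, and 70.0, 25.0 and 22.2 CPM at day 7. Mvk, mevalonate kinase, had 65.1, 42.6 and 31.0 CPM at day 0 in shControl, shNFIB and shMLL1, and 15.5, 8.56 and 11.0 CPM at day 7. Both kept shControl highest on each day. Pmvk, phosphomevalonate kinase, went from 48.7 to 14.7 CPM in shControl, from 25.8 to 8.32 CPM in shNFIB and from 27.7 to 9.92 CPM in shMLL1. Mvd, the decarboxylase that makes isopentenyl diphosphate, went from 40.9 to 6.66 CPM in shControl, from 26.5 to 5.11 CPM in shNFIB and from 20.5 to 5.70 CPM in shMLL1. Day effects of these 4 were -2.03 ± 0.239 for Acat2, -1.96 ± 0.231 for Mvk, -1.62 ± 0.196 for Pmvk and -2.28 ± 0.241 for Mvd. Exons of Fdps share 1124 bases with Gm43738 on the same strand, and those of Hmgcs1 share 557 and those of Idi1 323 bases with genes on the opposite strand, so these counts are uncertain.

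Between squalene and cholesterol, 9 of 11 members fell and 2 did not pass the test, with a median log2 fold change of -2.31. Sqle, squalene epoxidase (ENSMUSG00000022351, chr15:59315077-59331192 on GRCm38), was at 363 CPM in shControl, 312 CPM in shNFIB and 194 CPM in shMLL1 at day 0, and at 24.0, 15.4 and 19.2 CPM in the same order at day 7. Cyp51, the lanosterol demethylase, had 374, 264 and 242 CPM at day 0 in shControl, shNFIB and shMLL1, and 21.4, 20.8 and 20.3 CPM at day 7. Msmo1, the sterol methyl oxidase, went from 312 to 23.8 CPM in shControl, from 197 to 16.1 CPM in shNFIB and from 223 to 15.0 CPM in shMLL1. In all 3 genes the day 7 libraries were a small fraction of the day 0 ones in every line, with day effects of -3.87 ± 0.269 for Sqle, -3.79 ± 0.229 for Cyp51 and -3.74 ± 0.207 for Msmo1 (adjusted p = 0.000487, 0.000443 and 0.000443 in the quasi-likelihood test of edgeR, Benjamini-Hochberg adjusted). Fdft1, squalene synthase, had 213, 152 and 126 CPM at day 0 in shControl, shNFIB and shMLL1, and 22.2, 24.7 and 17.9 CPM at day 7. Lss, lanosterol synthase, had 99.5, 65.0 and 50.4 CPM at day 0 in shControl, shNFIB and shMLL1, and 14.9, 9.91 and 11.6 CPM at day 7. Both were lower at day 7 in every line. Nsdhl, a sterol dehydrogenase, went from 142 to 21.6 CPM in shControl, from 97.6 to 22.4 CPM in shNFIB and from 72.1 to 17.1 CPM in shMLL1. Hsd17b7, a keto-reductase of the same demethylation steps, went from 63.6 to 9.41 CPM in shControl, from 60.7 to 13.6 CPM in shNFIB and from 28.4 to 7.46 CPM in shMLL1. Sc5d, the sterol desaturase, went from 112 to 26.9 CPM in shControl, from 108 to 25.8 CPM in shNFIB and from 80.2 to 22.6 CPM in shMLL1. These 5 fell with day effects between -2.90 for Fdft1 and -1.99 for Sc5d.

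Ebp, the sterol isomerase, had 81.1, 57.3 and 74.5 CPM at day 0 in shControl, shNFIB and shMLL1, and 43.7, 30.2 and 37.0 CPM at day 7. Its day effect was -0.94 ± 0.174, nearest to 0 of the 9, with no overlap between days, and it was no longer called without the shControl line, at -1.01. The members that missed the threshold were Dhcr7 and Tm7sf2, both sterol reductases. Dhcr7 went from 60.0 to 14.7 CPM in shControl, from 38.7 to 11.1 CPM in shNFIB and from 20.8 to 21.9 CPM in shMLL1. The day 7 library was far lower in shControl and shNFIB, while in shMLL1 the days were level from a low start, and the day effect was -1.27 ± 0.419 (adjusted p = 0.0534, same test) and -1.96, then called, without the shMLL1 line. Dhcr7 was also called with DESeq2, with RLE factors and when all genes with at least 1 count were tested. Tm7sf2 went from 24.0 to 13.7 CPM in shControl, from 10.5 to 6.56 CPM in shNFIB and from 10.1 to 13.2 CPM in shMLL1. Its shMLL1 library was higher at day 7 and the others lower, giving -0.37 ± 0.293 with all lines and -0.78, then called, without shMLL1. Tm7sf2 shares 532 exonic bases with Vps51 on the same strand, and Fdft1 774 with Ctsb, Lss 381 with 4930483K19Rik and Cyp51 166 with Akap9 on the opposite strand, so the counts of these 4 are uncertain too.

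**Figure D2:**
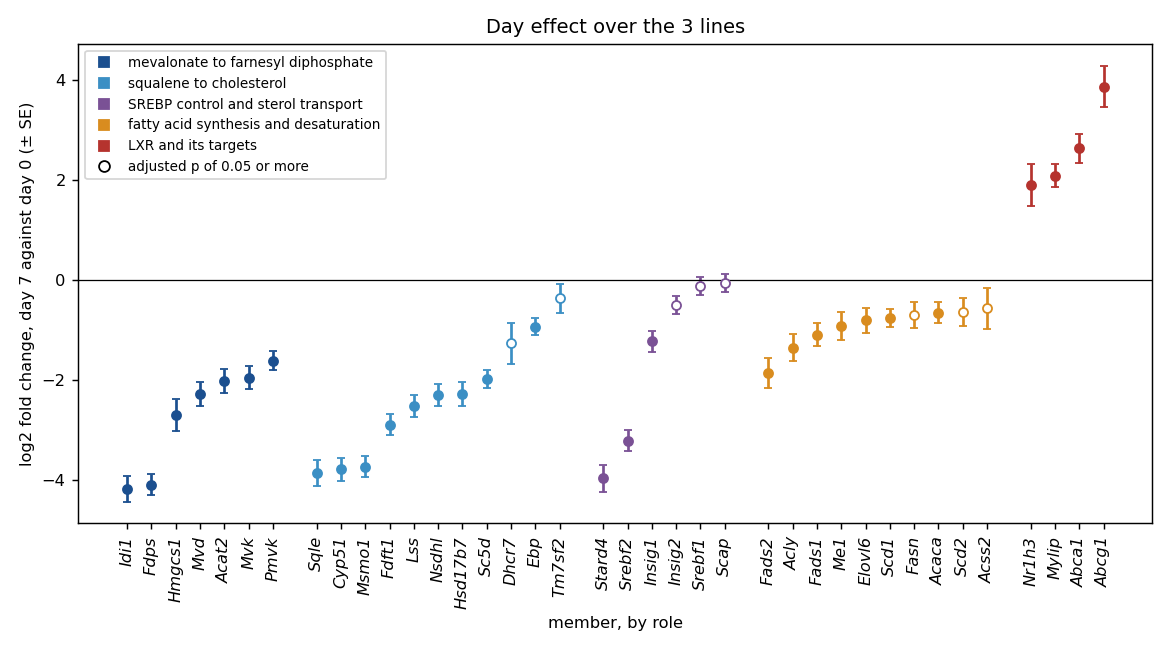
Day effect of each member as log2 fold change, day 7 against day 0 over the 3 lines, with bars for the SE and open circles where the adjusted p was 0.05 or more. Sterol enzymes reach down to -4.18 for Idi1, fatty acid members lie between -1.86 and -0.57, and the LXR group is above 0, up to 3.86 for Abcg1.

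Of the 6 members that control SREBP or carry sterol, 3 fell and 3 did not pass. Srebf2, the SREBP gene best known for cholesterol synthesis (ENSMUSG00000022463, chr15:82147181-82205379 on GRCm38), was at 368 CPM in shControl, 348 CPM in shNFIB and 210.0 CPM in shMLL1 at day 0, and at 41.8, 32.4 and 24.3 CPM in the same order at day 7. It was lower at day 7 in every line, with a day effect of -3.22 ± 0.210 (adjusted p = 0.000443 in the quasi-likelihood test of edgeR, Benjamini-Hochberg adjusted), a 9.35-fold fall. Srebf1, the SREBP gene tied more to fatty acid synthesis, had 41.2, 40.6 and 25.6 CPM at day 0 in shControl, shNFIB and shMLL1, and 40.2, 33.4 and 24.5 CPM at day 7. Its days overlapped, the day effect was -0.13 ± 0.182, and with library size alone in place of TMM it turned to 0.00548. Srebf1 shares 175 exonic bases with Mir6922 on the same strand and Rai1 on the opposite strand, so its counts are uncertain. Stard4, a carrier of cholesterol between membranes, went from 147 to 13.9 CPM in shControl, from 126 to 5.51 CPM in shNFIB and from 90.7 to 5.57 CPM in shMLL1. Its day effect was -3.97 ± 0.273 (adjusted p = 0.000474, same test), with no overlap between days.

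Insig1, which holds SREBP in the endoplasmic reticulum and is itself an SREBP target, went from 201 to 75.4 CPM in shControl, from 169 to 95.2 CPM in shNFIB and from 130.2 to 47.9 CPM in shMLL1. All day 7 libraries were below all day 0 libraries, with a day effect of -1.23 ± 0.210, and the call was lost without the shControl line, at -1.18. Insig2, its relative, had 61.8, 108 and 87.0 CPM at day 0 in shControl, shNFIB and shMLL1, and 52.0, 65.7 and 59.4 CPM at day 7. Scap, the SREBP escort, had 69.9, 82.5 and 42.1 CPM at day 0 in shControl, shNFIB and shMLL1, and 63.3, 69.9 and 48.4 CPM at day 7. The days overlapped for both, at -0.51 ± 0.186 for Insig2 and -0.06 ± 0.185 for Scap, and Scap turned to 0.0732 with library size alone and to 0.0275 without the shNFIB line. Scap shares 985 exonic bases with a gene on the opposite strand and is uncertain. Per kb of annotated exon, the mean day 0 level was 43.0 CPM per kb for Srebf2 and 6.36 CPM per kb for Srebf1, and at day 7 it was 4.57 CPM per kb for Srebf2 and 5.80 CPM per kb for Srebf1. On that scale Srebf2 was far above Srebf1 at day 0 and slightly below it at day 7.

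Markers of dividing cells fell too. All 8 proliferation markers passed the test, with log2 fold changes between -4.04 and -1.28, and their summed level was 1769, 2441 and 1844 CPM at day 0 in shControl, shNFIB and shMLL1, and 333, 277 and 229 CPM at day 7. Top2a was the most abundant of them at day 0 and Pcna at day 7, and none was at 0. The summed level of the 7 mevalonate members was 1026, 765 and 407 CPM at day 0 in shControl, shNFIB and shMLL1, and 169, 100.4 and 84.3 CPM at day 7. That of the 11 members from squalene on was 1846, 1362 and 1122 CPM at day 0 in shControl, shNFIB and shMLL1, and 237, 197 and 203 CPM at day 7. Both sums were several times lower at day 7 in every line, as was the marker sum, and the part of cell division in the sterol result was not tested. At day 0 the marker sum was highest in shNFIB, while both sterol sums were highest in shControl.

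Of the 10 members for fatty acid synthesis and desaturation, 7 fell and 3 did not pass, with a median log2 fold change of -0.79. Fads2, the first desaturase of polyunsaturated fatty acids (ENSMUSG00000024665, chr19:10062765-10101746 on GRCm38), was at 288 CPM in shControl, 289 CPM in shNFIB and 207 CPM in shMLL1 at day 0, and at 78.2, 130.5 and 34.8 CPM in the same order at day 7. Acly, which makes cytosolic acetyl-CoA from citrate, had 381, 263 and 154 CPM at day 0 in shControl, shNFIB and shMLL1, and 93.6, 121 and 80.6 CPM at day 7. Fads1, the next polyunsaturated desaturase, went from 409 to 190.3 CPM in shControl, from 302 to 189 CPM in shNFIB and from 278 to 97.6 CPM in shMLL1. In these 3 genes every day 7 library was below every day 0 library, with day effects of -1.86 ± 0.299 for Fads2, -1.36 ± 0.266 for Acly and -1.10 ± 0.236 for Fads1 (adjusted p = 0.00541, 0.0104 and 0.0143 in the quasi-likelihood test of edgeR, Benjamini-Hochberg adjusted). Without the shControl line, Acly at -1.07 and Fads1 at -1.14 were no longer called.

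Another 4 members passed with days that overlapped across lines. Scd1, the stearoyl-CoA desaturase, had 260.1, 189.9 and 111 CPM at day 0 in shControl, shNFIB and shMLL1, and 142, 112 and 69.1 CPM at day 7. Me1, malic enzyme, a source of NADPH, went from 136 to 90.3 CPM in shControl, from 204 to 146 CPM in shNFIB and from 93.4 to 27.8 CPM in shMLL1. Elovl6, an elongase of saturated fatty acids, went from 109 to 73.0 CPM in shControl, from 60.2 to 21.3 CPM in shNFIB and from 41.2 to 31.8 CPM in shMLL1. Each was lower at day 7 within every line. Acaca, acetyl-CoA carboxylase, had 148, 109.9 and 75.2 CPM at day 0 in shControl, shNFIB and shMLL1, and 69.4, 78.3 and 57.3 CPM at day 7. Here too each line was lower at day 7, with shMLL1 at day 0 under shNFIB at day 7. The day effects of these 4 were -0.77 ± 0.185 for Scd1, -0.93 ± 0.285 for Me1, -0.81 ± 0.255 for Elovl6 and -0.66 ± 0.210 for Acaca (adjusted p = 0.0205, 0.0434, 0.0466 and 0.0490 in the quasi-likelihood test of edgeR, Benjamini-Hochberg adjusted). With the line left out of the model as a block, none of the 4 passed, at -0.79 for Scd1, -0.71 for Me1, -0.74 for Elovl6 and -0.70 for Acaca. Without the shControl line none of the 4 was called, at -0.77 for Scd1, -1.15 for Me1, -0.98 for Elovl6 and -0.49 for Acaca. Scd1, Elovl6 and Acaca were also not called without the shNFIB line, at -0.78, -0.48 and -0.74, nor Me1 without the shMLL1 line, at -0.57. With library size alone in place of TMM, Me1, Elovl6 and Acaca were not called.

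The remaining 3 did not pass. Fasn, fatty acid synthase, went from 306 to 146 CPM in shControl, from 289 to 143 CPM in shNFIB and from 122 to 119.5 CPM in shMLL1. It was near level in shMLL1 and lower at day 7 in the other lines, with a day effect of -0.71 ± 0.263 and -1.08, then called, without the shMLL1 line, and it was called with DESeq2 and when all genes with at least 1 count were tested. Scd2, another stearoyl-CoA desaturase, had 1541, 1286 and 599.6 CPM at day 0 in shControl, shNFIB and shMLL1, and 656, 948 and 491 CPM at day 7. The days overlapped, since shMLL1 at day 0 was under shControl and shNFIB at day 7, and the day effect was -0.65 ± 0.282 and was called by DESeq2 alone of the alternatives run. Acss2, which makes acetyl-CoA from acetate, went from 16.0 to 5.87 CPM in shControl, from 6.56 to 3.82 CPM in shNFIB and from 4.27 to 6.27 CPM in shMLL1. It was lower at day 7 in shControl and shNFIB and higher in shMLL1, at -0.57 ± 0.413 over the lines and -1.16, then called, without shMLL1. Acss2 shares 927 exonic bases with Acss2os, Ggt7 and Gss on the opposite strand, so its counts are uncertain. Per kb of exon, Scd2 was the most abundant member on both days, at a mean of 209 CPM per kb at day 0 and 128 CPM per kb at day 7. Scd1 (chr19:44394455-44407879) and Scd2 (chr19:44293674-44306864) are similar in sequence and lie near each other on GRCm38, so reads shared between them make each count uncertain.

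Fat cell markers were read beside the fatty acid genes. Of 10 adipocyte markers, 7 were tested, 5 rose (Plin4, Pparg, Plin1, Cidec and Cfd) and 0 fell, and the summed level was 174, 179.8 and 63.9 CPM at day 0 in shControl, shNFIB and shMLL1, and 821, 418 and 568 CPM at day 7. Plin4 was the most abundant in every library. Adipoq had at most 1 count in any library, and Fabp4 lay between 3.58 and 4.84 CPM. Cfd, Cidec, Plin1, Lep and Retn had 0 counts in all 3 day 0 libraries, and at day 7 Cfd was at 69.8 CPM in shControl, 0.744 CPM in shNFIB and 1.84 CPM in shMLL1. Fatty acid members summed to 3593, 2999.5 and 1685 CPM at day 0 in shControl, shNFIB and shMLL1, and 1545, 1893 and 1015 CPM at day 7. The day 7 sum of the fatty acid members was highest in shNFIB and that of the markers in shControl, and the part of fat-like cells in these results was not tested.

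All 4 members of the LXR group rose, with no overlap between days. Abcg1, a sterol exporter (ENSMUSG00000024030, chr17:31057675-31117988 on GRCm38), was at 1.25 CPM in shControl, 5.51 CPM in shNFIB and 3.28 CPM in shMLL1 at day 0, and at 43.7, 46.5 and 38.5 CPM in the same order at day 7. It was low at day 0, lowest in shControl, and similar across lines at day 7, with a day effect of 3.86 ± 0.415 (adjusted p = 0.00131 in the quasi-likelihood test of edgeR, Benjamini-Hochberg adjusted), a 14.5-fold rise. Abca1, the exporter that loads lipid onto apolipoproteins, went from 46.1 to 168 CPM in shControl, from 23.3 to 192 CPM in shNFIB and from 31.9 to 250.1 CPM in shMLL1. Its day effect was 2.63 ± 0.289 (adjusted p = 0.00141, same test). Within lines the log2 fold changes of Abca1 were 1.86 (1.78 to 1.95) in shControl, 3.04 (2.93 to 3.15) in shNFIB and 2.97 (2.87 to 3.07) in shMLL1. Mylip, the ubiquitin ligase that marks lipoprotein receptors for decay, had 38.5, 37.8 and 19.7 CPM at day 0 in shControl, shNFIB and shMLL1, and 159.6, 117 and 116 CPM at day 7. Nr1h3, the gene of LXR alpha, went from 0.689 to 3.02 CPM in shControl, from 0.380 to 1.76 CPM in shNFIB and from 0.828 to 2.17 CPM in shMLL1. Mylip rose by 2.08 ± 0.233 and Nr1h3 by 1.89 ± 0.412, and Nr1h3, low in all 6 libraries, lost its call without the shControl line, at 1.72. The sum of the 4 was 86.6, 67.0 and 55.7 CPM at day 0 in shControl, shNFIB and shMLL1, and 374, 357 and 406 CPM at day 7. The macrophage marker Cd68 also rose, and the 5 macrophage markers summed to 2.60, 1.58 and 2.65 CPM at day 0 in shControl, shNFIB and shMLL1, and 8.40, 4.53 and 8.32 CPM at day 7, with Adgre1 at 0 in every library.

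Other genes of these pathways, 37 of them, were counted for comparison, and 33 passed the filter. Of those, 13 fell and 2 rose, beside the 16.5% and 16.8% of all genes. Among 12 other sterol genes tested, Lbr, Aacs and Ch25h fell, with day effects of -1.84 for Lbr, -1.06 for Aacs and -2.35 for Ch25h, and none rose, a share not far from that of all genes. Of 15 other fatty acid genes tested, 9 fell, namely Acsl3 at -2.71, Acsl4 at -1.41, Acsl1 at -1.30, Mid1ip1 at -1.23, Tecr at -1.20, Hsd17b12 at -1.10, Slc25a1 at -0.97, Elovl5 at -0.74 and Elovl1 at -0.59. Acacb at 1.85 and Hacd3 at 0.92 rose. Of the 6 other LXR partners and targets, Arl4c fell by 1.49 on the log2 scale and none rose, again a share like that of all genes. The median day effect was -0.34 over the 33 genes, against -1.32 over the members.

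Promoter sequence was read for all members with an entry in the RefSeq table (GRCm38.p6), including those that rose or did not pass. Its windows of 300 bases run from 250 before to 50 after a gene start. Of the 38 members, 30 had an entry, and Fdps, Fdft1, Sqle, Stard4, Scd1, Scd2, Fads1 and Abcg1 had none. Both strands were searched for the sterol regulatory element TCACNCCAC. The NF-Y box was searched as CCAAT. The NFI palindrome was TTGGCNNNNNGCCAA. The LXR element was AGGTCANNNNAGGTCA. CCAAT was in 5 of 6 mevalonate members, 9 of 9 members from squalene to cholesterol, 4 of 5 regulators and carriers, 4 of 7 fatty acid members and 1 of 3 LXR members. By window it was in 24 of the 40 of the members and in 37.4% of all 32851. The sterol element was in 1 member window, that of Hmgcs1, and in 1.24% of all. The NFI and LXR motifs were in no member window and in 0.0365% and 0.0152% of all. A match is a run of letters and shows no binding.

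Stretches are shown for Hmgcs1, which holds the sterol element, and for Lss, Mvd and Sc5d, which were the sterol enzymes with the lowest day effects among those whose window, read from its far end, held a match before an exon of any gene. Each runs 5′ to 3′ from 10 bases before its first match to the base before the RefSeq start or the first GENCODE exon, so all lie upstream of the gene and outside exons. Capitals mark CCAAT on either strand and, in Hmgcs1, the sterol element.
Hmgcs1, chr13:119690104-119690350, + strand: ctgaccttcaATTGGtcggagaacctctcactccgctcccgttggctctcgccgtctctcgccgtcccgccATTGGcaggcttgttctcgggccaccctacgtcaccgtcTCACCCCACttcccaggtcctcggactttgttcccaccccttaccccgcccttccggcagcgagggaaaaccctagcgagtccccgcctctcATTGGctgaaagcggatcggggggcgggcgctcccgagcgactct
Lss, chr10:76531533-76531587, + strand: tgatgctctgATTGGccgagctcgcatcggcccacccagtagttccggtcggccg
Mvd, chr8:122443423-122443492, - strand: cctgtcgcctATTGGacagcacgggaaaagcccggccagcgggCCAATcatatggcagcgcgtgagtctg
Sc5d, chr9:42264301-42264334, - strand: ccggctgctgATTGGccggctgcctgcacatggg
Upstream of its start Hmgcs1 held 3 CCAAT boxes beside the sterol element, Mvd held 2, and Lss and Sc5d held 1 each.

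**Figure D3:**
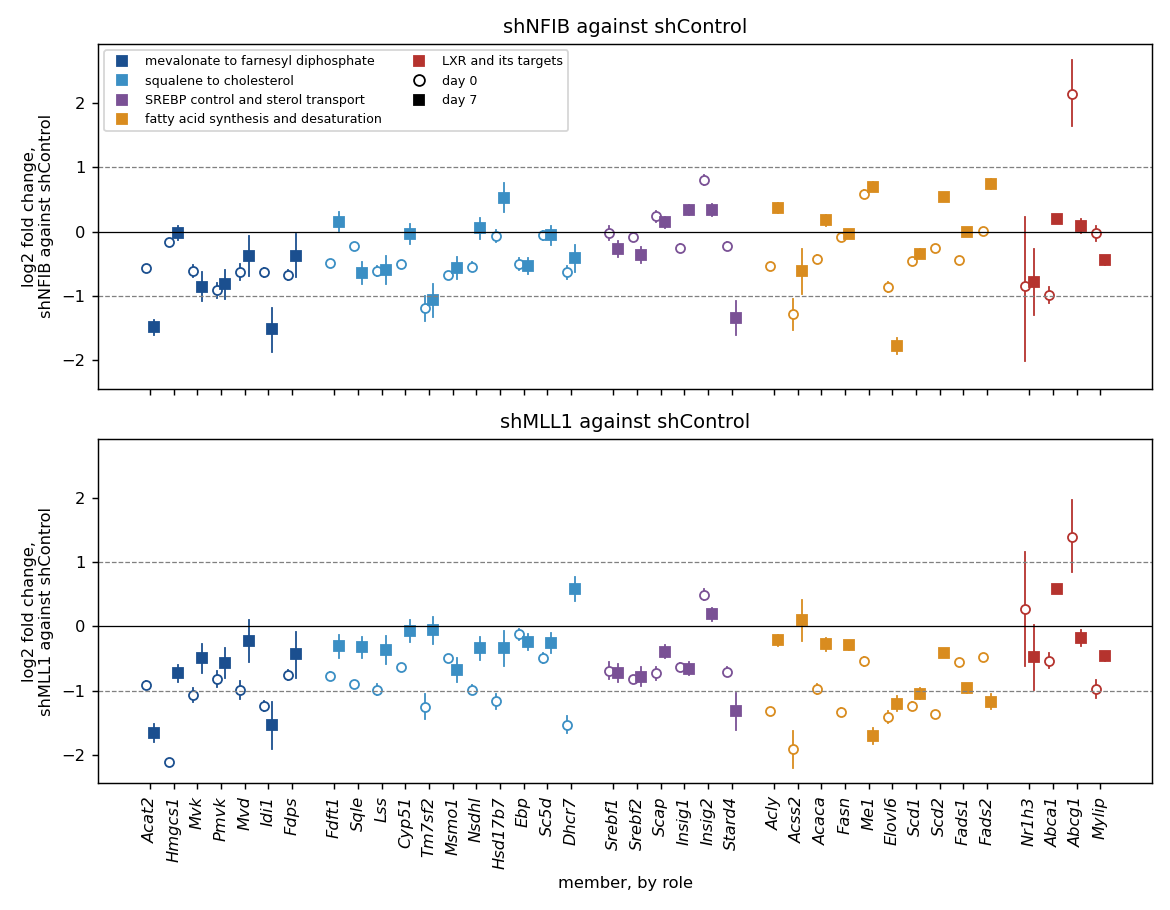
Difference between each knockdown line and shControl for each member as log2 fold change, open circles for day 0 and filled squares for day 7, with exact 95% counting intervals and dashed lines at 2-fold, 1 library per condition. Many members lie below 0 in shMLL1 at day 0, down to Hmgcs1 at -2.11, and Abcg1 lies above 0 at day 0 in both lines.

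Knockdown lines were then set against shControl, which all 4 of these comparisons share, each day having its own shControl library. In shMLL1 at day 0, 12 of 38 members were past 2-fold lower and 1 higher, beside 9.35% and 11.0% of genes with enough counts. The median was -0.86 over the members and -0.04 over all genes counted. The lowest was Hmgcs1, with a log2 fold change of -2.11 (-2.17 to -2.05), 4.32-fold lower. In the sterol groups Dhcr7 was at -1.53 (-1.66 to -1.40) and Idi1 at -1.24 (-1.32 to -1.15), and Mvk, Hsd17b7 and Tm7sf2 were also past 2-fold. In the fatty acid group, 6 of 10 members were past 2-fold lower, with Acss2 at -1.90 (-2.19 to -1.62), Elovl6 at -1.40 (-1.50 to -1.31), Scd2 at -1.36 (-1.39 to -1.34), Fasn at -1.33 (-1.38 to -1.27), Acly at -1.31 (-1.36 to -1.26) and Scd1 at -1.23 (-1.29 to -1.17). The member past 2-fold higher was Abcg1, at 1.39 (0.85 to 1.96) from low counts. An exact test at an assumed BCV (biological coefficient of variation) of 0.2, which compares these 2 libraries and not the conditions, called 10, all lower and without Mvk (also lost with RLE factors), Hsd17b7 and Abcg1, beside 9.74% of genes. The assumed 0.2 is below the common BCV of 0.281 in the fit over all 6 libraries, which also holds any difference between lines in their response to day, so the exact test here and in the pairs that follow may call too many genes. The summed fatty acid level in shMLL1 was 46.9% of that in shControl, and the proliferation marker sum was 104%. The mesenchymal marker sum was 58.7% of that in shControl. The adipocyte marker sum, most of it Plin4, was 36.8%, with 3 of the 4 markers with enough counts past 2-fold lower. The part of these markers in the difference was not tested.

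In shNFIB at day 0 the members were closer to shControl. Past 2-fold lower were 2 members and past 2-fold higher 1, beside 6.32% and 7.26% of genes, so neither share of the members was above the background. The total was 5 with library size alone, beside 13.4% of genes, and 1, Abcg1, by an exact test at an assumed BCV of 0.2, beside 4.97%. The 3 past 2-fold were Acss2 at -1.29 (-1.53 to -1.05), Tm7sf2 at -1.19 (-1.38 to -1.01) and Abcg1 at 2.13 (1.63 to 2.67). The median was -0.47 over the members and 0.09 over all genes counted. Srebf2 was at -0.08 (-0.12 to -0.04), and Hmgcs1 at -0.17 (-0.20 to -0.13), a small difference beside that in shMLL1. Marker sums in shNFIB were 138% of shControl for proliferation, 139% for mesenchymal and 104% for adipocyte markers, and their part was not tested.

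At day 7, 7 members were past 2-fold lower in shMLL1 and 0 higher, beside 6.95% and 8.59% of genes, with a median of -0.40 over members and -0.03 over all genes counted. These were Me1 at -1.70 (-1.82 to -1.58), Acat2 at -1.66 (-1.80 to -1.52), Idi1 at -1.53 (-1.91 to -1.17), Stard4 at -1.32 (-1.61 to -1.04), Elovl6 at -1.20 (-1.32 to -1.08), Fads2 at -1.17 (-1.28 to -1.05) and Scd1 at -1.04 (-1.12 to -0.96). Scd1 was no longer past 2-fold with library size alone. By the exact test at the same assumed BCV 3 were called, Acat2, Idi1 and Me1, beside 5.63% of genes. In shNFIB at day 7, 5 were lower and 0 higher, beside 13.2% and 8.07%, with medians of -0.31 and -0.01. The share of members lower in shNFIB was close to that of all genes. These members were Elovl6 at -1.78 (-1.91 to -1.65), Idi1 at -1.52 (-1.86 to -1.19), Acat2 at -1.49 (-1.61 to -1.37), Stard4 at -1.33 (-1.60 to -1.07) and Tm7sf2 at -1.07 (-1.32 to -0.82), and the exact test called 4, without Tm7sf2, beside 9.61% of genes. Me1 was lower in shMLL1 and higher in shNFIB, at 0.70 (0.63 to 0.76), than in the shared shControl library. Adipocyte markers also differed here, with sums of 69.2% of shControl in shMLL1 and 50.9% in shNFIB, most of it Plin4. Past 2-fold lower were 7 of the 9 markers with enough counts in shMLL1 and 7 of 9 in shNFIB, where Pparg was past 2-fold higher. Proliferation marker sums were 68.8% of shControl in shMLL1 and 83.3% in shNFIB, with median log2 fold changes of -0.55 and -0.47. Mesenchymal marker sums were 81.2% in shMLL1 and 93.3% in shNFIB, with medians of -0.62 and 0.10. The part of adipocyte, proliferation and mesenchymal markers in these differences was not tested.

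Over both days, with day as a block, the quasi-likelihood test of edgeR, Benjamini-Hochberg adjusted, called 0 of 38 members in shNFIB against shControl and 0 in shMLL1 against shControl. The hairpin targets did not pass this test either, with Nfib at -2.39 ± 0.512 in shNFIB (adjusted p = 0.140) and Kmt2a at -1.10 ± 0.224 in shMLL1 (adjusted p = 0.149, both the quasi-likelihood test of edgeR, Benjamini-Hochberg adjusted). Among all genes tested it called 0.263% lower and 0.113% higher in shNFIB, and 0.0179% lower and 0.0119% higher in shMLL1. Calls in shNFIB numbered 1 without its day 0 library, 4 without that of shMLL1 at day 0 and 5 without that of shMLL1 at day 7, and calls in shMLL1 numbered 3 without shNFIB at day 0, 3 without shNFIB at day 7, 1 without shMLL1 at day 0 and 4 without shMLL1 at day 7, all lower. Where a library of either line compared was left out, 1 library stood for that line and was assumed to vary like the other lines. Over all genes the share called also moved, to 1.97%, 5.33% and 4.50% in the 3 shNFIB cases and to 2.04%, 2.13%, 1.40% and 3.61% in the 4 shMLL1 cases, in either direction. Without adjustment, 11 members in shNFIB and 24 in shMLL1 were under 0.05 in edgeR, as were 12.5% and 9.28% of all genes. DESeq2 called 4 members in shNFIB, Acat2, Pmvk, Idi1 and Elovl6, and 5 in shMLL1, Acat2, Hmgcs1, Idi1, Elovl6 and Scd1, all lower, beside 3.67% and 2.82% of all genes called by DESeq2 in either direction. The median line effect of the members was -0.27 in shNFIB and -0.68 in shMLL1, against 0.04 and -0.02 over all genes. The 7 adipocyte markers tested had medians of -1.36 in shNFIB, with 1, Cfd, called lower, and -2.46 in shMLL1. The mesenchymal markers had medians of 0.32 and -0.52. The part of these markers was not tested. For Idi1 the line effects were -1.04 ± 0.278 in shNFIB and -1.39 ± 0.281 in shMLL1 (adjusted p = 0.203 and 0.149 in the quasi-likelihood test of edgeR, Benjamini-Hochberg adjusted). For Elovl6 they were -1.28 ± 0.313 and -1.29 ± 0.311. Of the other pathway genes, Smpdl3a alone was called, lower in shNFIB at -4.64 ± 0.564, from 3.22 and 13.5 CPM in shControl to 0.253 and 0.304 CPM in shNFIB at day 0 and day 7. Whether a knockdown changed the response to day was not tested, as each condition had 1 library.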

How the data were processed

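RNA-seq counts of 6 libraries were used. Per the submitters' processing notes, reads were trimmed with Trimmomatic 0.39, aligned to mm10 (GRCm38) with HISAT2 2.2.1 and handled with SAMtools 1.12 and HTSeq 0.11.1. Poorly mapped reads and PCR duplicates were dropped before counting, which can lower the counts of highly expressed genes and of genes with near copies. The authors deposited raw counts per Ensembl gene, with no normalization. The strand setting of the counting is not given in the sources used here, and exons of 14 members overlap another gene, so those reads cannot be assigned with certainty.

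Symbols, positions and exon lengths came from GENCODE M21. Counts were scaled with TMM factors over the 6 libraries in edgeR 4.0.16 (R 4.3.3). The quasi-likelihood test, with line and day as terms, was run on 16742 genes kept by filterByExpr, with p-values adjusted over all of them. Pairs used a prior count of 0.125 and a 2-fold rule among genes with at least 10 counts in 1 library. DESeq2 1.42.0 was an alternative. Both days of a pair come from the same line, and across genes their deviations from the day means correlated at 0.424 in shControl, 0.427 in shNFIB and 0.273 in shMLL1, so the line was a block. Intervals hold counting error alone, since each condition had 1 library. Reads with no known molecular identifier cannot be counted as molecules, so even that error may be understated. A p-value here rests on how far the day response differed between lines, or a line difference between days. It holds no spread between cultures of 1 line.

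Members and lists were chosen with earlier results of these data known. A member is given in every library if called in the day or a line effect, past 2-fold in at least 2 of the 7 pairs, or a regulator, which covered all 38. Other pathway genes are named only if called, except Thrsp. Figures were drawn with Python 3.11.15 and matplotlib 3.10.9.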

Additional observations from a re-analysis of the deposited data

Results flagged for a closer look

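Some members differed in opposite directions in different lines or on different days, each by more than counting error with TMM factors, and these differences were not tested, since each condition had 1 library. How many of all genes differ in this way was not counted, so it is not shown to be particular to the members. Counting intervals are narrow at high counts, so small differences can pass them. Values are log2 fold changes with exact 95% counting intervals. Tm7sf2, day 7 against day 0, was at -0.80 (-0.98 to -0.63) in shControl and -0.68 (-0.94 to -0.42) in shNFIB, and at 0.38 (0.15 to 0.62) in shMLL1. Scap, day 7 against day 0, was at -0.14 (-0.23 to -0.05) in shControl and -0.24 (-0.32 to -0.15) in shNFIB, and at 0.20 (0.08 to 0.31) in shMLL1. Acss2, day 7 against day 0, was at -1.45 (-1.70 to -1.20) in shControl and -0.78 (-1.12 to -0.44) in shNFIB, and at 0.55 (0.21 to 0.90) in shMLL1. With library size alone the interval of Scap in shControl held 0, at -0.04 (-0.13 to 0.05), while its shNFIB and shMLL1 values stayed opposite.

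For shNFIB against shControl, Fdft1, Insig1, Acly, Acaca, Scd2 and Abca1 were lower at day 0 and higher at day 7. Fdft1 was at -0.49 (-0.55 to -0.44) at day 0 and 0.16 (0.00238 to 0.31) at day 7. Insig1 was at -0.25 (-0.30 to -0.20) at day 0 and 0.34 (0.26 to 0.42) at day 7. Acly was at -0.53 (-0.57 to -0.49) at day 0 and 0.37 (0.30 to 0.44) at day 7. Acaca was at -0.42 (-0.49 to -0.36) at day 0 and 0.17 (0.09 to 0.26) at day 7. Scd2 was at -0.26 (-0.28 to -0.24) at day 0 and 0.53 (0.50 to 0.56) at day 7. Abca1 was at -0.99 (-1.11 to -0.86) at day 0 and 0.19 (0.14 to 0.25) at day 7. The day 7 intervals of Fdft1 and Acaca held 0 with library size alone, at 0.05 (-0.11 to 0.20) for Fdft1 and 0.07 (-0.02 to 0.15) for Acaca, as did that of Fdft1 with RLE factors, at 0.12 (-0.03 to 0.27).

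For shMLL1 against shControl, Dhcr7, Abca1 and Abcg1 had opposite directions at day 0 and day 7. At day 0 Dhcr7 and Abca1 were lower and Abcg1 was higher. Dhcr7 was at -1.53 (-1.66 to -1.40) at day 0 and 0.58 (0.39 to 0.76) at day 7. Abca1 was at -0.53 (-0.65 to -0.41) at day 0 and 0.58 (0.52 to 0.63) at day 7. Abcg1 was at 1.39 (0.85 to 1.96) at day 0 and -0.18 (-0.30 to -0.06) at day 7. Abcg1 rested on 40 counts in shControl and 99 in shMLL1 at day 0, and its day 7 interval held 0 with library size alone, at -0.07 (-0.20 to 0.05).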

How the results depend on the processing

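Brackets give the share of all genes called in either direction by the same fit. The day effect called 30 members, 26 without the line as a replicate block (23.3%), 33 with DESeq2 (38.9%), 31 with RLE factors (33.7%), 27 with library size alone (32.3%) and 32 with all genes with at least 1 count (21.6%). Leaving out a line gave 21 calls without shControl (13.2%), 27 without shNFIB (29.7%) and 33 without shMLL1 (30.7%). Day effects kept their sign under these alternatives except Srebf1, at 0.00548 with library size alone, and Scap, at 0.0732 with library size alone and between -0.23 and 0.0275 with 1 line left out (highest without shNFIB), neither of them called. The shNFIB effect called 0 members, also without the day block, with RLE and with library size alone, but 4 with DESeq2 (3.67%), 3 with all genes with at least 1 count (2.37%), 2 with only the libraries of shNFIB and shControl (3.31%), and 0 to 5 with 1 library left out. The shMLL1 effect called 0, also without the day block, with RLE, with library size alone and with only 4 libraries, but 5 with DESeq2 (2.82%), 5 with all genes with at least 1 count (1.81%), and 0 to 4 with 1 library left out. The cause was not tested.

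Members past 2-fold for shNFIB against shControl at day 0 were 3, but 5 with library size alone (4 lower and 1 higher) and 1 with an exact test at an assumed BCV of 0.2. For shMLL1 against shControl at day 7 they were 7, but 3 with that test. Other pair counts stayed within 1.5 times, though that test also lost Fasn for day 7 against day 0 in shNFIB. Library size alone moved the median log2 fold change of all genes by 0.21 for day 7 against day 0 in shMLL1, by -0.11 and -0.11 for shNFIB against shControl at day 0 and day 7, and by 0.11 for shMLL1 at day 7.

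With library size alone, summed CPM at day 0 and then day 7, each in shControl, shNFIB and shMLL1, were 1003, 694, 398, 177, 97.6, 95.2 for the mevalonate group, 1805, 1237, 1098, 248, 191, 229 from squalene on, 870.0, 794, 573, 300.4, 294, 237 for SREBP control and transport, 3514, 2724, 1649, 1619.6, 1840.2, 1147 for fatty acid synthesis and 84.7, 60.8, 54.5, 392, 347, 459 for LXR. Limits are 1 library per condition, lines that stand in as replicates of a day, and counting intervals that hold no culture-to-culture spread.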

Other observations

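Markers of other cell types were low. The 4 muscle markers summed to at most 0.169 CPM in any library, with Ckm at 0 in all 6. Epithelial markers summed to 9.05, 5.83 and 7.99 CPM at day 0 in shControl, shNFIB and shMLL1, and 1.15, 0.203 and 0.615 CPM at day 7, nearly all from Cdh1, with Epcam and Krt18 at 0 in all 6. Endothelial markers summed to 17.9, 25.4 and 3.31 CPM at day 0 in shControl, shNFIB and shMLL1, and 2.76, 4.94 and 3.61 CPM at day 7, nearly all from Tek at day 0, with Kdr at or under 0.0994 CPM. Thrsp, a regulator of fat synthesis in the list of other fatty acid genes, was at 8.23 CPM in shControl at day 7 and at or under 0.157 CPM in the other 5 libraries, and was chosen after its values were seen.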
